A study of Rattus norvegicus with 18 samples.

Results

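Metallothioneins and antioxidant enzymes were followed in rat cortical type-I astrocytes plated on a surface that carried a bound piece of beta-amyloid. The genes were Mt1, Mt2A, Mt3, Gsta1 and Sod2, and every probe set whose platform symbol was one of these was taken. This gave 6 probe sets for the 5 genes, 1 each for Mt1, Mt2A, Mt3 and Sod2 and 2 for Gsta1, of 1263 probe sets other than control probe sets, which name 720 genes. All 6 passed the filter on dim probe sets, which left 1027 to be tested. The bound peptide covered residues 25 to 35, and 3 samples were exposed to it for 12 hours, 3 for 1 day, 3 for 3 days and 3 for 5 days. The 6 control samples grew on laminin and nitrocellulose with no peptide, for a time that is not stated. Controls 1 and 2 carry cerebral cortex as their source, while the other 16 samples carry type-I astrocytes. The titles of controls 1 and 2 do name astrocytes. The labels give neither strain, sex or age, nor the number of separate cultures. The p-values therefore cover only how far these arrays scatter, which may be a technical scatter.

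Metallothioneins are small cysteine-rich proteins that bind zinc and copper and also react with oxidants. Mt1 and Mt2A are induced in many cells by metals and glucocorticoids, and the zinc-sensing factor Mtf1 acts on them through metal response elements. Mt3 is the brain form, once called growth inhibitory factor, and metals induce it little. Gsta1 encodes an alpha-class glutathione S-transferase, which joins glutathione to reactive compounds. Sod2 encodes the mitochondrial manganese superoxide dismutase, which turns superoxide into hydrogen peroxide and is induced by inflammatory cytokines.

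Mt1, Mt2A and Mt3 lie next to each other on chromosome 19 in the GRCr8 assembly, with no other annotated gene starting between them. The 250 bases before each of their starts are shown because Mt1 and Mt2A had closely similar profiles over the arrays. They come from the RefSeq annotation of GRCr8 and are on the minus strand, at chr19:10832976-10833225 for Mt1, chr19:10838709-10838958 for Mt2A and chr19:10856081-10856330 for Mt3. Capitals mark each match, on either strand, to the metal response element cores TGCACNC and TGCGCNC, where N is any base.
Mt1: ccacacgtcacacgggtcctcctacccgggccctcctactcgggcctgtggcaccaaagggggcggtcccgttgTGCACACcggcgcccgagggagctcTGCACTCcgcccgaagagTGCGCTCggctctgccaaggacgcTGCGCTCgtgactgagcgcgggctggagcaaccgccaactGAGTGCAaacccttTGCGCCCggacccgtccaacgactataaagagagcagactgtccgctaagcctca
Mt2A: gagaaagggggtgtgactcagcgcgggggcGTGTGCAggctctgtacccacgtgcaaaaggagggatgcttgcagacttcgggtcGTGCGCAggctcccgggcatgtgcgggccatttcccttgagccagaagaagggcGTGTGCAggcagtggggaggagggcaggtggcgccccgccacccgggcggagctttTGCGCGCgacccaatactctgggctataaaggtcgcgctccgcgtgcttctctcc
Mt3: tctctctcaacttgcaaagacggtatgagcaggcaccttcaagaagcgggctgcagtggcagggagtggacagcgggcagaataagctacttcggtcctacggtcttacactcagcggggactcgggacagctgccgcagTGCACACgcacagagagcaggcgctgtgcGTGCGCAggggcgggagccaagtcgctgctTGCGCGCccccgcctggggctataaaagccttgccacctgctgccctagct

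The Mt1 window held 6 matches, the Mt2A window 4 and the Mt3 window 3, and no 2 of these matches overlapped. Those of Gsta1 and Sod2 held 0. Of 33469 promoter windows of the same length, 20.6% held at least 1 match to either core and 1.17% held 3 or more. The antioxidant response element core TGACNNNGC matched 1 time each in the Mt1, Mt2A and Sod2 windows and 0 times in the Mt3 and Gsta1 windows, and 10.1% of windows held it. The kappa B site, searched by its consensus, had 0 matches in the 5 windows and was held by 1.08% of all. A match describes letters and does not show that a factor binds.

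The arrays did not group by exposure alone, which bears on every comparison. Clustered on all tested probe sets, they formed 5 clusters. Cluster 1 held the 3 arrays at 12 hours and control 1, and cluster 2 held 1 day arrays 1 and 2. Cluster 3 held 1 day array 3, 3 days array 3 and control 2, and cluster 4 held 3 days arrays 1 and 2 and control 3. Cluster 5 held the 3 arrays at 5 days and controls 4 to 6. Arrays of the same group in different clusters had a median correlation of 0.821, while arrays of different groups in the same cluster had 0.952. Arrays of the same group in the same cluster had 0.958. The clusters were cut from these same correlations, so higher values within clusters were built in and describe the clusters only. Divided into 2, the tree joined clusters 1 and 3 against clusters 2, 4 and 5. Folds are therefore given from all arrays and, for most comparisons, also with the 5 clusters as a block, which compares exposed arrays with the controls of their own cluster. With that block, the 12 hours value rests on control 1 alone and the 1 day value on 1 exposed array, array 3, set against control 2 and, through the 3 days effect, against 3 days array 3. The clusters were cut from the same values, so p-values with the block may be too small.

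Mt2A had its highest signals at 5 days and a wide split among the controls. Its probe set rc_AI176456_at had signals of 2312, 1962.8 and 2160.9 at 12 hours and 9234.3, 9081.5 and 546.1 at 1 day. It had 1157.1, 1242.7 and 735.2 at 3 days and 17805, 14537.3 and 15526.3 at 5 days. The controls ran from 461.3 over a median of 7204 to 16156.3, and controls 4, 5 and 6 had 16156.3, 12608.9 and 13663.7. Controls 4 to 6 overlapped the arrays at 5 days, and control 1, at 1798.4, lay near those at 12 hours. The lowest signals were those of control 2, control 3 and 1 day array 3. Within the control group the highest signal was 35.0 times the lowest, and within the 12 hours group 1.18 times. In such bulk samples fewer cells of a type and less RNA per cell cannot be told apart.

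Mt1 followed Mt2A over a narrower range. Its probe set rc_AI102562_at had signals of 1220.9, 1114.3 and 1310.9 at 12 hours and 1572.2, 1430.3 and 930.7 at 1 day. It had 1001.9, 874.8 and 1087.2 at 3 days and 3207.2, 3788.6 and 3601.7 at 5 days. The controls ran from 812 over a median of 2099 to 3251.4, with 2667.1, 2704.4 and 3251.4 on controls 4, 5 and 6. At 5 days the signals were above every array at 12 hours, 1 day and 3 days, and 1 of the 6 controls, control 6, reached into their range.

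Mt3 was high at 5 days on all 3 arrays and split at 1 day and 3 days. Its probe set rc_AA924772_at had signals of 459.4, 378.4 and 474.3 at 12 hours, 2910.6, 3030.2 and 91.9 at 1 day, and 1492.2, 1842 and 170.2 at 3 days. At 5 days it had 2914.5, 4629.4 and 3901.6, which was above all 6 controls. The controls ran from 156.4 over a median of 1105 to 2001. The low arrays at 1 day and 3 days were both numbered 3 and shared a cluster with control 2, which had the lowest control signal.

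Sod2 ran the other way, with its lowest signals at 5 days and on controls 4 to 6. Its probe set Y00497_s_at had signals of 1583.1, 1711.1 and 1612 at 12 hours, 887.5, 629.4 and 1216.8 at 1 day, and 781.1, 1071.1 and 989.4 at 3 days. It had 528.9, 529.5 and 395.2 at 5 days. The controls ran from 304.1 over a median of 644.4 to 2648, and controls 4, 5 and 6 had 465.8, 405.1 and 304.1. The suffix of this probe set marks probes that may match more than 1 transcript. The highest signal of all 18 arrays was that of control 1, above each array at 12 hours.

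The 2 Gsta1 probe sets were lowest on controls 3 to 6. Both carry the platform suffix for probes that match several members of a gene family, so other alpha-class transferase transcripts may add to their signal. S72505_f_at had 2134.3, 2207.6 and 2153.4 at 12 hours, 1243.2, 1386.7 and 2166.4 at 1 day, and 2656.4, 3193.9 and 1718.9 at 3 days. It had 1449.3, 3681.8 and 3213.1 at 5 days, against 716.3 to 2062.2 with a median of 1111 in the controls.

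X78848cds_f_at had 1458.9, 1437 and 1436.9 at 12 hours, 1856.3, 1966.1 and 2542.3 at 1 day, and 2498.6, 2087.1 and 2002.3 at 3 days. It had 1741.3, 2105.3 and 2130.4 at 5 days, against 1028.5 to 2330.4 with a median of 1318 in the controls. At 12 hours all 3 arrays lay above the controls on S72505_f_at, while on X78848cds_f_at they lay inside the control range. The correlation of the log2 signals of these 2 probe sets was 0.71 over 18 arrays.

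**Figure D1:**
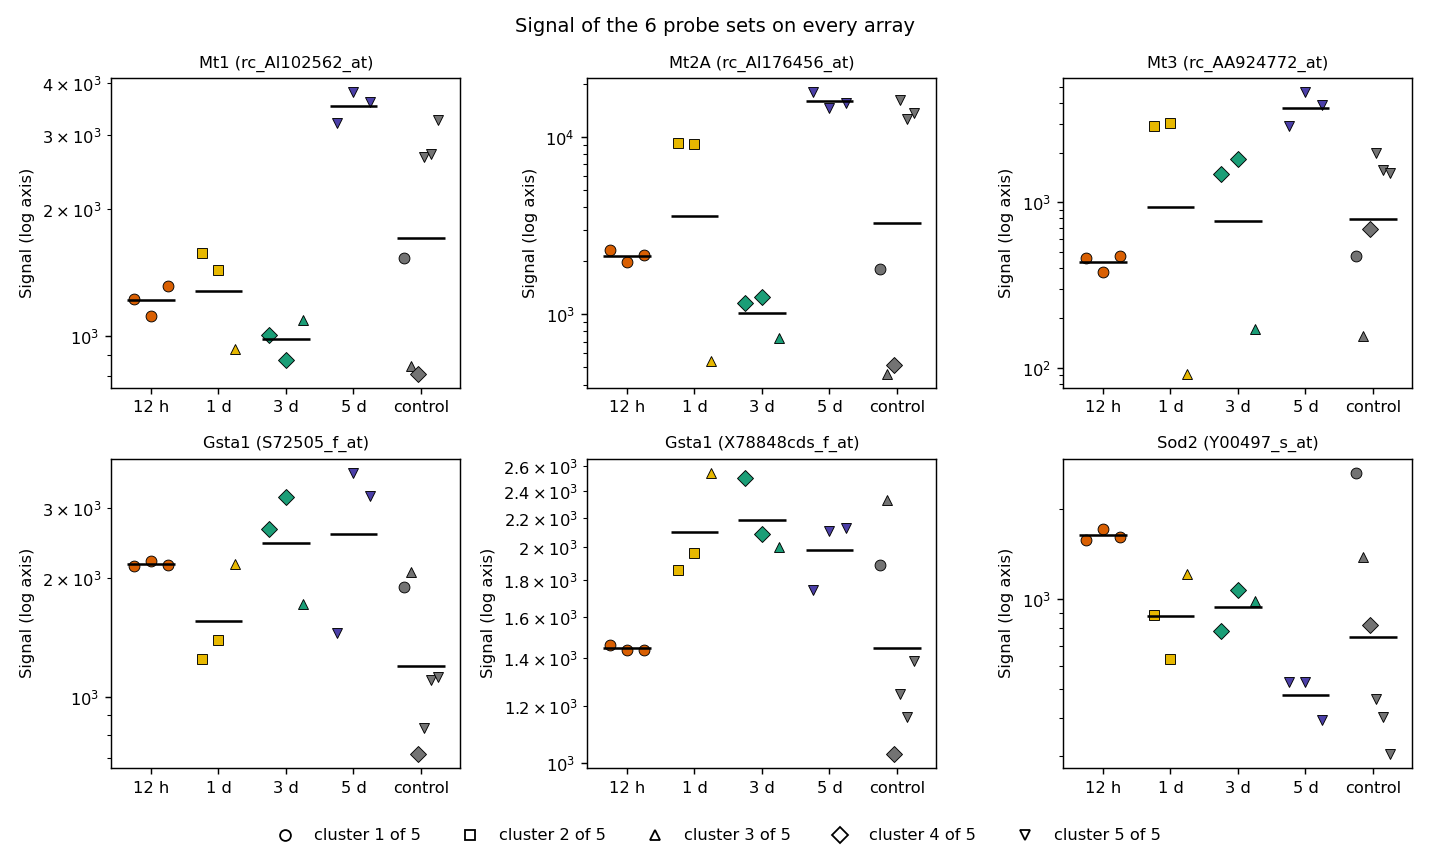
Signal of each of the 6 probe sets on a log axis, by exposure group with the controls at the right; each point is 1 array, its shape gives its cluster of 5, and the bar is the geometric mean of the group. The Mt2A controls spread from 461.3 to 16156.3, while the 3 arrays at 12 hours lie between 1962.8 and 2312.

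The first question was whether any of the genes differed from the controls at each time. By limma none of the 6 probe sets passed an adjusted p of 0.05 at 12 hours, 1 day, 3 days or 5 days. Over all 1027 probe sets, 1.66% passed at 12 hours, 0.292% at 1 day, and 0% at both 3 days and 5 days. At an unadjusted p under 0.05 there were 2, 1, 2 and 3 of the 6 probe sets at the 4 times, against 29.3%, 11.7%, 4.58% and 9.15% of all tested. The 4 comparisons share the controls, so their values are not independent of each other.

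The metallothioneins had their widest differences from control at 5 days, and none passed. Mt2A averaged 15956 ± 1676 (SD, n = 3) at 5 days and 7534 ± 7346 (SD, n = 6) in the controls, a log2 fold of 2.29 ± 1.15 (SE; limma, adjusted p = 0.520). Mt3 averaged 3815 ± 861 (SD, n = 3) at 5 days and 1068 ± 727 (SD, n = 6) in the controls. Its log2 fold was 2.25 ± 1.06 (SE; limma, adjusted p = 0.520), and all 3 arrays lay above every control. It was the only one of the 6 probe sets whose 5 days and control signals did not overlap, as was the case for 5.36% of all tested. Mt1 averaged 3533 ± 297 (SD, n = 3) at 5 days and 1968 ± 1046 (SD, n = 6) in the controls, a log2 fold of 1.05 ± 0.39 (SE; limma, adjusted p = 0.469).

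At the earlier times the 95% intervals of all metallothionein folds included 0. At 12 hours Mt1, Mt2A and Mt3 had log2 folds of -0.49, -0.61 and -0.86, with limma adjusted p-values of 0.397, 0.738 and 0.593. At 1 day they had -0.42, 0.14 and 0.24, and at 3 days -0.79, -1.68 and -0.03, with limma adjusted p-values of at least 0.781. The 95% interval of the Mt2A fold at 1 day ran from -2.32 to 2.59.

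Sod2 had a log2 fold of 1.13 ± 0.52 (SE) at 12 hours (limma, adjusted p = 0.156), with 3 of 3 arrays above the control mean. Its folds were 0.24 at 1 day, 0.33 at 3 days and -0.64 at 5 days, with limma adjusted p-values of 0.942, 0.999 and 0.606. Without controls 1 and 2, whose source label differs, Sod2 rose at 12 hours by 1.81 on the log2 scale (limma, adjusted p = 0.00154), as 1 of 321 probe sets called of 1027. Without control 1 alone the fold was 1.495 (limma, adjusted p = 0.0222), with 211 of 1027 called. Control 1 was the only control in the cluster of the 12 hours arrays. Both fits therefore compared these arrays with controls of other clusters only. Set against control 1 within their own cluster, the 12 hours arrays gave -0.70 instead (limma, adjusted p = 0.946).

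On S72505_f_at, Gsta1 had log2 folds of 0.86 ± 0.37 (SE) at 12 hours, 0.38 ± 0.37 at 1 day, 1.04 ± 0.37 at 3 days and 1.11 ± 0.37 at 5 days. All 3 arrays lay above the control mean at each of the 4 times. It was the only one of the 6 probe sets with no overlap at 12 hours, where 15.2% of all tested did not overlap. At 1 day and 3 days all 6 probe sets overlapped the controls, and 1.95% and 1.56% of all tested did not. On X78848cds_f_at the folds were -0.00019 ± 0.23 (SE), 0.54 ± 0.23, 0.60 ± 0.23 and 0.46 ± 0.23 at the 4 times. The median log2 fold of all tested at 12 hours was -0.18, and with arrays centred on their medians, where it was 0.0047, the X78848cds_f_at fold was 0.19. No Gsta1 fold passed by limma, with adjusted p-values of 0.145 to 0.999. Without controls 1 and 2, S72505_f_at rose at 12 hours by 1.22 (limma, adjusted p = 0.0147), and X78848cds_f_at rose at 1 day by 0.81 with 0.0176. There 321 and 59 of the 1027 probe sets were called. That fit left clusters 1 and 3 without a control. Within clusters 2, 4 and 5 alone, X78848cds_f_at rose at 1 day by 0.67 (limma, adjusted p = 0.0463), with 123 of 1027 called. With the 5 clusters as a block the 12 hours folds were 0.19 on S72505_f_at and -0.39 on X78848cds_f_at, resting on control 1 alone. Within clusters 1 and 3 the S72505_f_at fold at 12 hours was 0.13. On that probe set controls 1 and 2 had 1892.8 and 2062.2.

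**Figure D2:**
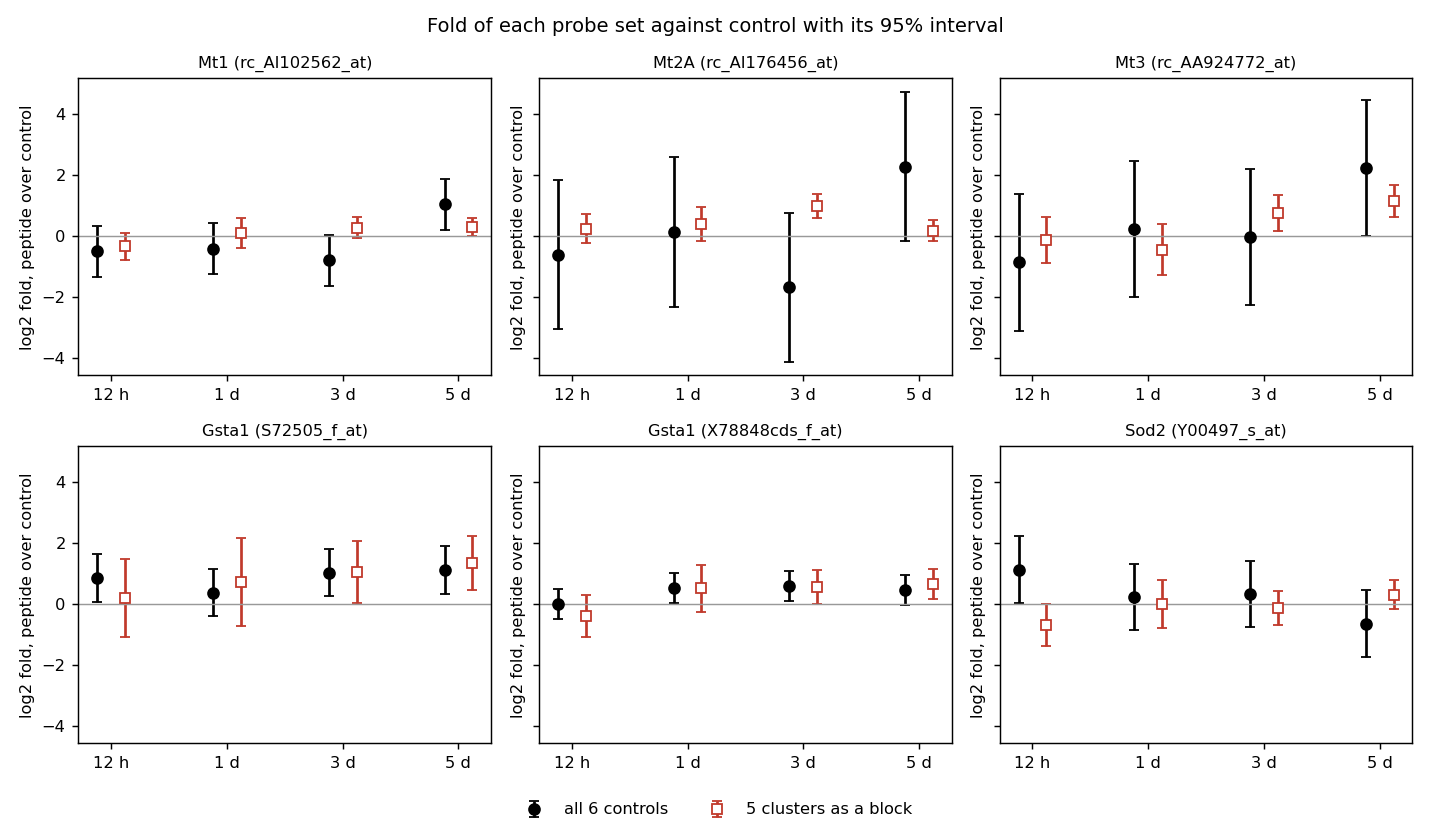
Log2 fold of peptide over control at each exposure time for each probe set, with 95% intervals from limma; filled circles use all 6 controls and open squares have the 5 clusters of arrays as a block. The Mt2A interval at 3 days runs from -4.13 to 0.78 with all controls and from 0.59 to 1.37 with the block.

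Setting exposed arrays against the controls of their own cluster changed the picture most for Mt2A. At 3 days arrays 1 and 2 had 1157.1 and 1242.7 against 516.4 on control 3, and array 3 had 735.2 against 461.3 on control 2. The log2 fold with the block was 0.98 ± 0.18 (SE; limma, adjusted p = 0.0277), while without it the fold was -1.68 with 0.999. It was the only one of the 6 probe sets called at 3 days with the block, where 0.584% of all tested were called. Mt1 and Mt3 had folds of 0.27 and 0.77 at 3 days with the block, with limma adjusted p-values of 0.616 and 0.371. This fit was chosen after the data were seen.

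At 5 days, controls 4 to 6 from the same cluster gave a comparison of 3 arrays with 3. Mt3 averaged 3815 ± 861 at 5 days and 1694 ± 267 on these controls (SD, n = 3 each), a ratio of 2.25 with no overlap. On S72505_f_at Gsta1 averaged 2781 ± 1177 at 5 days and 1018 ± 162 on controls 4 to 6 (SD, n = 3 each), a ratio of 2.73. On X78848cds_f_at it averaged 1992 ± 218 at 5 days and 1265 ± 114 on those controls (SD, n = 3 each), a ratio of 1.58. The groups overlapped on neither Gsta1 probe set. Mt2A averaged 15956 ± 1676 at 5 days and 14143 ± 1822 on controls 4 to 6, Mt1 averaged 3533 ± 297 at 5 days and 2874 ± 327 on those controls, and Sod2 averaged 485 ± 77.4 at 5 days and 391.7 ± 81.7 on those controls (SD, n = 3 each). The groups overlapped on these 3. So 3 of the 6 probe sets, that of Mt3 and both of Gsta1, were higher at 5 days without overlap, as were 3.99% of all tested. The Gsta1 probe sets are not independent of each other, with a correlation of 0.71 over the 18 arrays.

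With the 5 clusters as a block none of the 6 passed at 5 days, where 0% of all tested did. The log2 folds were 1.16 ± 0.24 (SE) for Mt3, 1.35 ± 0.41 for Gsta1 on S72505_f_at and 0.65 ± 0.22 on X78848cds_f_at, with limma adjusted p-values of 0.184, 0.319 and 0.342. Those of Mt2A and Mt1 were 0.18 and 0.30, and that of Sod2 was 0.32, which was above 0 where the fold against all controls was below it.

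**Figure D3:**
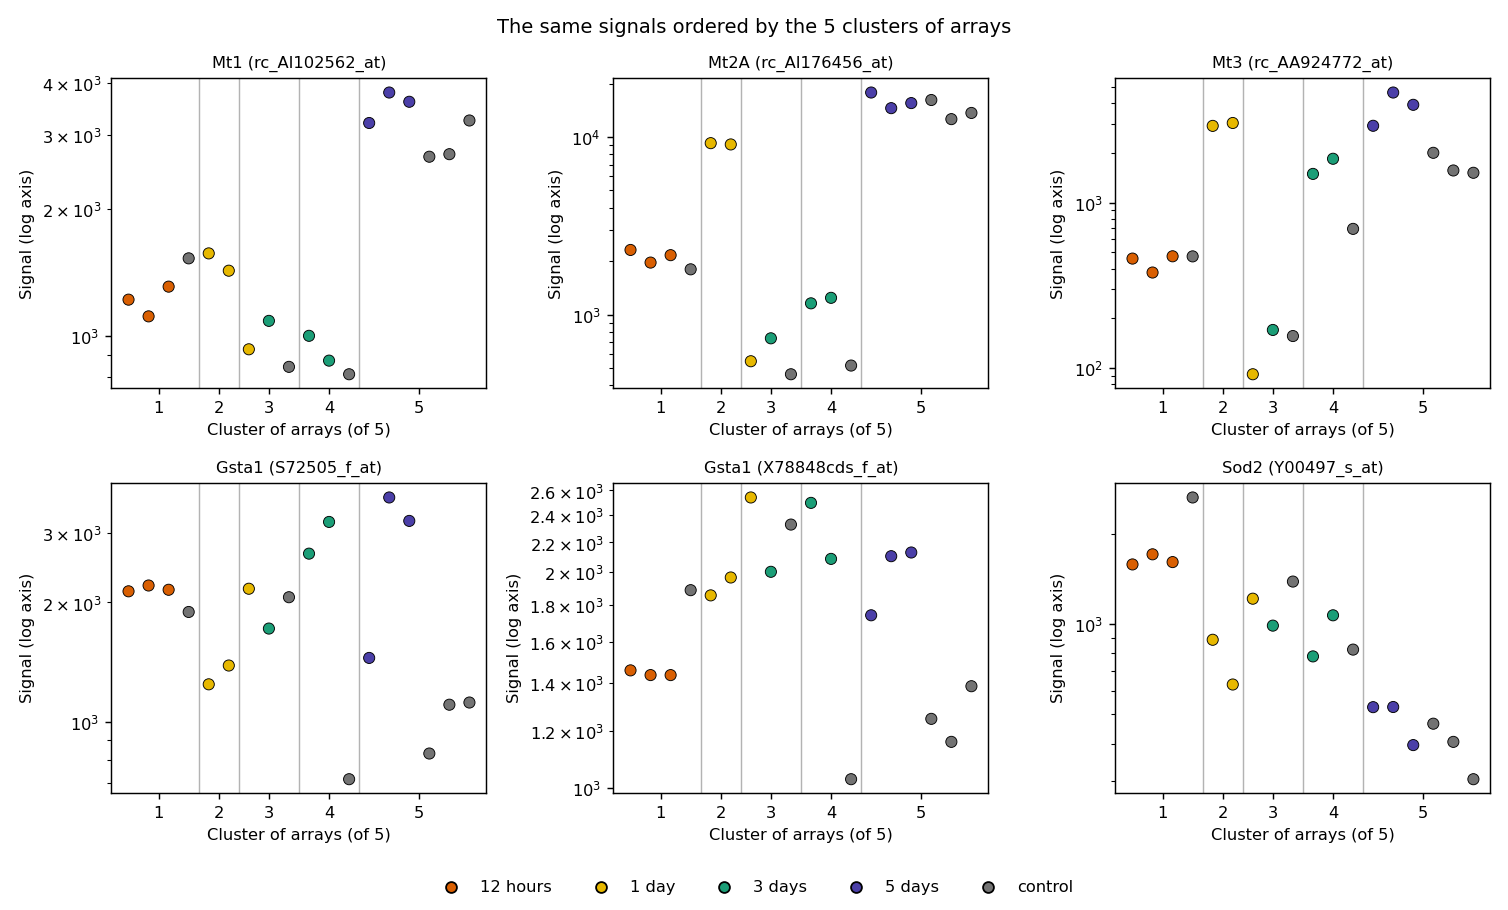
The same signals on a log axis with the 18 arrays ordered by cluster of 5, colours giving the group and controls standing right of the exposed arrays in each cluster. In cluster 5 the 3 arrays at 5 days exceed controls 4 to 6 for Mt3 and both Gsta1 probe sets and overlap them for Mt1, Mt2A and Sod2.

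The second question was how the genes differed between exposure times. Mt1 rose at 5 days against 12 hours, by 1.54 ± 0.45 (SE) on the log2 scale or 2.91-fold (limma, adjusted p = 0.0424). It averaged 3533 ± 297 at 5 days and 1215 ± 98.4 at 12 hours (SD, n = 3 each), and was higher in 3 of 3 arrays. It was the only one of the 6 probe sets called, where 16.5% of all tested were called and 8.96% were called higher. At an unadjusted p under 0.05 there were 4 of the 6, against 31.9% of all tested. Mt2A had a log2 fold of 2.89, Mt3 3.11 and Sod2 -1.77, with limma adjusted p-values of 0.146, 0.0901 and 0.0526. Gsta1 had 0.25 and 0.46, with limma adjusted p-values of 0.727 and 0.258. The 2 times did not overlap on 5 of the 6 probe sets, and on 53.7% of all tested.

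All arrays at 5 days lay in cluster 5 and all at 12 hours in cluster 1, so cluster and time cannot be told apart in this comparison without the controls. With the 5 clusters as a block the Mt1 fold was 0.64 (limma, adjusted p = 0.537), and with the 2 clusters it was 0.98 with 0.403. With the 5 clusters Mt3 had 1.28, Mt2A -0.07 and Sod2 1.01, with limma adjusted p-values of at least 0.488. The Mt1 call was also lost without any 1 of the 6 arrays at 12 hours and 5 days or of 1 day arrays 1 and 2, at folds between 1.48 and 1.61 (limma, adjusted p = 0.0502 to 0.118). Sod2 passed this comparison without control 1, 2 or 6, with limma adjusted p-values of 0.0169, 0.0453 and 0.0451. Mt3 passed it without 1 day array 3, with a limma adjusted p of 0.0361. None of these arrays belongs to either time, so the folds were unchanged, at -1.77 for Sod2 and 3.11 for Mt3.

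Between consecutive times none of the 6 probe sets passed by limma. At 1 day against 12 hours 0% of all tested passed, at 3 days against 1 day 0.0974%, and at 5 days against 3 days 0.292%. At an unadjusted p under 0.05 the 3 steps had 0, 0 and 2 of the 6, against 14.6%, 8.37% and 11.5% of all tested, and the 2 were Mt1 and Mt2A at 5 days against 3 days. There Mt1 had a log2 fold of 1.84 (limma, adjusted p = 0.0902), and it passed without control 2 or control 3, which are not part of that comparison. Mt2A had 3.96 and Sod2 -0.97 (limma, adjusted p = 0.242 and 0.507). With the 5 clusters as a block the fold at 5 days against 3 days was 0.027 for Mt1, and it was reversed for Mt2A (-0.81, 95% interval -1.32 to -0.29) and Sod2 (0.44). At 3 days against 1 day the Mt2A fold was -1.81 and with the block 0.58. None of these passed by limma. The groups did not overlap on 2, 0 and 4 of the 6 at the 3 steps, and on 33.9%, 11.3% and 24% of all tested. The F-test over the 5 groups called none of the 6 by limma, with adjusted p-values of 0.105 for Mt1 and 0.171 to 0.346 for the others, and 1.66% of all tested passed it.

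Ordered by mean log2 signal, Mt1 ran from 5 days over control, 1 day and 12 hours to 3 days, and Mt2A from 5 days over 1 day, control and 12 hours to 3 days. Mt3 ran from 5 days over 1 day, control and 3 days to 12 hours, and Sod2 from 12 hours over 3 days, 1 day and control to 5 days. Gsta1 ran from 5 days over 3 days, 12 hours and 1 day to control on S72505_f_at, and from 3 days over 1 day, 5 days and control to 12 hours on X78848cds_f_at. No neighbours in these orders differed beyond the spread by limma, with adjusted p-values of at least 0.388.

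The genes also differed in how far their variation followed the array clusters, given here as a description since the clusters were cut from these arrays. The 5 clusters took 97.8% of the sum of squares of log2 signal for Mt2A, 95.7% for Mt1, 92.1% for Mt3 and 90.6% for Sod2, against a median of 59.4% over all tested probe sets. For Gsta1 they took 10.4% on S72505_f_at and 28.5% on X78848cds_f_at. The 5 groups took 50.7% and 51.2% for the Gsta1 probe sets and 32.3% to 58.8% for the others, with a median of 36.1% over all tested. Within the groups, the residual SD of Mt2A was 1.77 and that of Mt3 1.62 on the log2 scale, larger than those of 97.7% and 97.1% of tested probe sets. That of X78848cds_f_at was 0.31, larger than 21.5%.

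**Figure D4:**
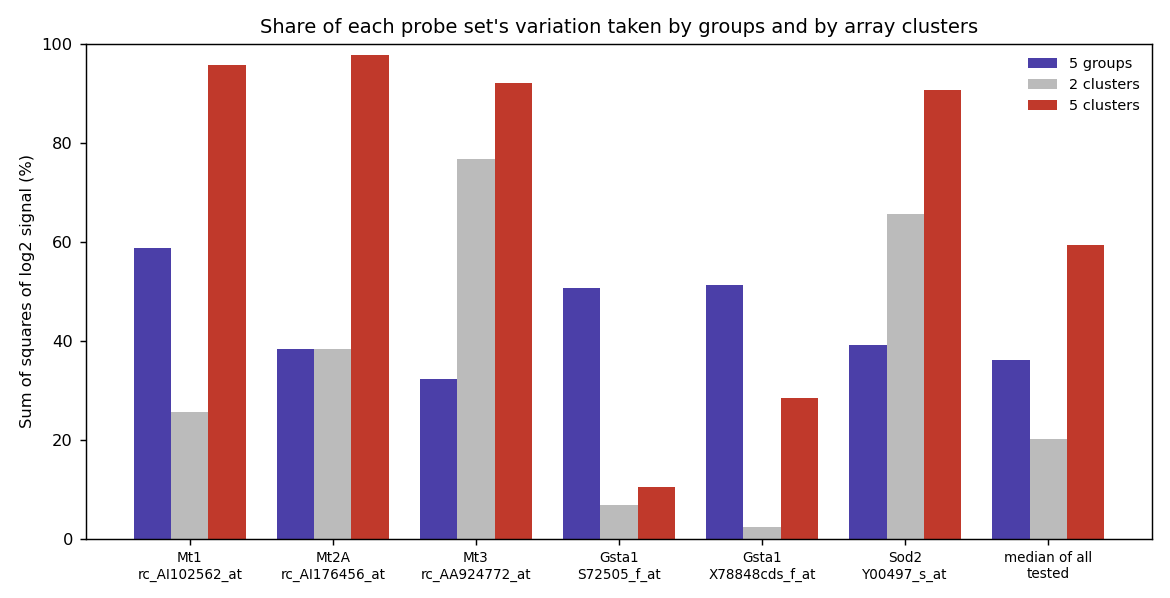
Share of the sum of squares of log2 signal over 18 arrays taken by the 5 groups, the 2 clusters and the 5 clusters, for each probe set and for the median of all 1027 tested. The bars of the 5 clusters stand above 90% for Mt1, Mt2A, Mt3 and Sod2 and below 30% for both Gsta1 probe sets.

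Likeness was measured as the Pearson correlation of log2 signal over all 18 arrays, which share the clusters, so high values also arise between genes that differ only between clusters. Mt1 and Mt2A had 0.92, and 0.91 within the 11 arrays of clusters 2, 4 and 5. Differences between those clusters remain in the second value. Mt3 had 0.81 with Mt2A and 0.68 with Mt1, and Sod2 had -0.72, -0.70 and -0.67 with Mt1, Mt2A and Mt3. Gsta1 on S72505_f_at had -0.16 to 0.29 with the other 4 genes.

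The genes most like Mt2A were Apoe, the main lipid carrier of astrocytes, with 0.94, then Mt1, then the adhesion molecule Vcam1 with 0.90. For Mt1 they were Mt2A, the potassium channel subunit Kcns1 with 0.91 and Apoe with 0.88. For Mt3 they were the glutamate transporter Slc1a3 with 0.97, the matrix proteoglycan Ncan with 0.95 and the brain creatine kinase Ckb with 0.93, and within the 11 arrays these 3 had 0.83, 0.67 and 0.59. For Sod2 they were the calcium sensor Ncs1 with 0.89, the cadherin Cdh6 with 0.88 and the kinase Map3k1 with 0.87. For Gsta1 on S72505_f_at the highest were Grina with 0.74, the growth factor receptor Fgfr1 with 0.72 and the kinase Mapk9 with 0.59.

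Of 53 listed genes of metal handling, superoxide and peroxide removal, and glutathione synthesis and transfer, 10 were on the array and tested, with 17 probe sets, 11 of them for genes other than these 5. Against control none of the 17 passed by limma at any time, and their median log2 fold at 5 days was 0.52, against -0.14 over all tested. That median includes the probe sets of these 5 genes, whose own median was 1.08. Among the other 11, Tf had 1.43, 1.33 and 2.56 and Sod3 had 0.83 and 0.52. Sod1 had -0.14, -0.02 and -0.14, Hmox1 had -0.22 and -0.20, and Gsta2 had -0.60. Transferrin, Tf, the iron carrier, rose at 5 days against 3 days by 1.88 on D38380_g_at and 3.32 on U31866_g_at, each with the same limma adjusted p of 0.0136. The U31866_g_at signals at 3 days were 6.6, 10.1 and 15.6, of which 2 lay below the floor of 11.3, so the size of that fold depends on the floor. Against 12 hours Tf rose by 2.15 on D38380_g_at (limma, adjusted p = 0.00413) and by 2.24 on D38380_at with 0.0259. With the 5 clusters as a block these 4 folds were 1.07 to 1.74 and none passed by limma, with adjusted p-values of 0.448 to 0.703. In each comparison the remaining Tf probe set did not pass without the block. D38380_at had 1.66 against 3 days (limma, adjusted p = 0.218), and U31866_g_at had 1.42 against 12 hours (limma, adjusted p = 0.0913). At 12 hours against control Tf had -0.81 on D38380_at, -0.82 on D38380_g_at and 1.14 on U31866_g_at. The D38380_at call was lost without any 1 of the 6 arrays at 12 hours and 5 days. Both calls against 3 days were lost without 3 days array 1 or 3 or 5 days array 1 or 3, and that of U31866_g_at also without 3 days array 2, with limma adjusted p-values of 0.05004 to 0.0849 over these losses.

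The other antioxidant genes did not pass in any comparison, and the times and probe sets given for them were chosen after their values were seen. Hmox1, the stress-induced enzyme that breaks down heme, had signals of 6687.7, 6903.7 and 6217.1 at 3 days on rc_AI179610_at, against 1848.9 to 5306.4 in the controls, and its F-test had a limma adjusted p of 0.283. The extracellular superoxide dismutase Sod3 had 5302.9, 4522.5 and 1091.2 at 3 days on Z24721_at, against 883.4 to 4057.9 in the controls, and its F-test had a limma adjusted p of 0.304. The cytosolic enzyme Sod1 had 6945.2, 6522.1 and 6287.4 at 5 days on M21060_s_at, against 5705.4 to 8589.5 in the controls. The Gsta2 probe set rc_AI235747_at stayed between 4 and 58.1 on all 18 arrays.

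Markers of cell types were checked on the same arrays. Of 12 astrocyte markers 7 were on the array, and their summed signal was 38084 to 39437 at 12 hours, 31909 to 33546 at 1 day, 24365 to 33155 at 3 days and 37710 to 38750 at 5 days, against 23378 to 36505 in the controls. On the 3 arrays where Mt3 was lowest, 1 day array 3, 3 days array 3 and control 2, the 7 markers did not move one way. S100b had 21.6, 20 and 19.7 there, and S100b, Slc1a3 and Apoe had their lowest signals of the 18 arrays. The gap junction gene Gja1 had its highest, with 9508.6, 11591.7 and 8604.3, and Vim, at 16603.7, 15247.7 and 18647.7, lay within its range on the other arrays. Glul had 6263.2, 4981.2 and 5504.1, against 5569.9 to 12630.1 on the other arrays. Slc1a2, at 62.3, 69.3 and 89.7, lay within its range on the other arrays. The fibroblast and meningeal list had 1 of 9 genes on the array, Igf2, with 7281.1, 8743.8 and 8043 on those 3 arrays, 3282.5 to 3729.6 on those of cluster 1, and 211.2 to 645.3 on the arrays of clusters 2, 4 and 5. The microglial list had 1 of 9, Itgam, at 22.3 to 77 on all arrays. The neuronal list had 9 of 11, with a summed signal of 3432 to 6136, and the oligodendrocyte list 4 of 6, with 730 to 1463. Gfap and Aqp4, which also mark astrocytes, were not analysed here. The part of these markers in the results was not tested.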

How the data were processed

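The authors deposited 1 table of linear intensity (signal) for 1322 probe sets on 18 arrays. How they computed and scaled it is not given in the sources used here. Each array's mean, leaving out 2% at either end, lay between 502.1 and 502.6, so no further scaling was applied to the deposited intensity. The 10th percentile of the table without its 59 control probe sets, 11.3, served as a floor before the log2 step. Probe sets above 44.9, the 30th percentile, on at least 3 arrays were tested. Symbols came from the platform annotation, and all 5 genes matched the RefSeq table by gene identifier. Probe sets were not averaged.

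One model of the 5 groups covered all arrays (limma 3.58.1, R 4.3.3), with 13 residual degrees of freedom, two-sided tests and Benjamini-Hochberg adjustment over 1027 probe sets within each comparison. The procedure was tested on simulated data for 5 days against control only. The simulated arrays had independent noise and no clusters, so that test says nothing about clustered arrays such as these. The number of arrays limits the precision. Clusters came from average linkage on 1 minus the Pearson correlation. The members, lists, motifs and clusters were chosen with earlier results of these data known. All probe sets of the 5 genes were described, and the 3 genes most correlated with each gene's brightest probe set and listed genes past the threshold were named. Same-numbered arrays deviated together in 1 pair of groups, 1 day and 3 days, with correlations of 0.39, 0.43 and 0.68. The arrays numbered 3 lay in cluster 3 in both groups, apart from the others of their group. Deviations from a group mean cancel within the group, so the other correlations follow in part from array 3. Differently numbered arrays were not compared, so these values cannot show that each number forms a pair. That pairing comes from the values, not the labels. Alternatives covered the floor, the filter, scaling, controls, clusters, pairing and each array left out.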

Additional observations from a re-analysis of the deposited data

Results flagged for a closer look

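Mt1 differed between exposure times by a test of the difference itself, with a log2 fold of 1.54 at 5 days against 12 hours and a limma adjusted p of 0.0424. The folds against control were 1.05 at 5 days and -0.49 at 12 hours, and the shared controls cancel in the difference. Cluster and time coincide in this comparison, and the call was lost with the 2 or the 5 clusters as a block (limma, adjusted p = 0.403 and 0.537) and in 8 of 18 fits that left out 1 array. Dixon's test separated no single control array from the others on any of the 6 probe sets. It looks for 1 extreme array and cannot detect a split of the controls into sets. The Mt2A controls were so split, with 1798.4, 461.3 and 516.4 on controls 1 to 3 and 12608.9 to 16156.3 on controls 4 to 6.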

How the results depend on the processing

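Counts are of the 6 probe sets past a limma adjusted p of 0.05, and folds are log2. Without controls 1 and 2, 2 passed at 12 hours and 1 at 1 day against control, 2 at 5 days against 12 hours, 1 at 5 days against 3 days and 4 by the F-test, against 0, 0, 1, 0 and 0 with them. This fit left clusters 1 and 3 without a control, so the 12 hours arrays were set against controls of other clusters only. Of all 1027 tested, 321, 59, 246, 18 and 219 passed without controls 1 and 2. Folds there were reversed for Gsta1 on X78848cds_f_at at 12 hours (0.27), Mt2A and Mt3 at 1 day (-0.78 and -0.53) and Sod2 at 5 days (0.043). With the 5 clusters as a block 1 passed at 3 days against control and 0 at 5 days against 12 hours. Folds against control were then reversed for Mt2A (0.25) and Sod2 (-0.70) at 12 hours, for Mt1 (0.094), Mt3 (-0.44) and Sod2 (-0.0068) at 1 day, for Mt1 (0.27), Mt2A (0.98), Mt3 (0.77) and Sod2 (-0.12) at 3 days and for Sod2 (0.32) at 5 days. Those of Mt2A (-0.075) and Sod2 (1.01) were reversed at 5 days against 12 hours. With the 2 clusters as a block 0 passed at 5 days against 12 hours, where Mt3 had -0.12, and Mt2A and Mt3 had 1.11 and 1.29 at 12 hours against control. Within clusters 1 and 3, folds against control were reversed for Mt1 (0.092), Mt2A (1.23), Mt3 (0.68) and Sod2 (-0.23) at 12 hours, for Mt2A (-0.74), Mt3 (-1.57) and Sod2 (-0.66) at 1 day, and for Gsta1 (-0.20 on S72505_f_at and -0.067 on X78848cds_f_at) and Sod2 (-0.95) at 3 days. Within clusters 2, 4 and 5, 1 passed at 1 day against control, and Mt3 at 3 days (0.30) and Sod2 at 5 days (0.043) were reversed. Centring on the median reversed Gsta1 on X78848cds_f_at at 12 hours (0.19) and Mt3 at 3 days (0.0044). With no filter 0 passed at 5 days against 12 hours, where Mt1 had a limma adjusted p of 0.0501 and more probe sets were tested.

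The replicate numbers pair no groups by the labels. With the number as a replicate block over all groups 3 passed at 5 days against control, 3 at 5 days against 12 hours, 2 at 5 days against 3 days and 2 by the F-test, where 61, 152, 24 and 45 of all 1027 passed. Controls 4 to 6 then share their numbers with no other array and carry no information. Folds were reversed for Mt1 (0.25), Mt2A (1.51) and Mt3 (0.23) at 12 hours, Mt1 (0.33) and Sod2 (-0.72) at 1 day, and Mt2A (0.43), Mt3 (1.06) and Sod2 (-0.62) at 3 days. A replicate block in the 1 day and 3 days arrays alone left 0 of the 6 called between these times.

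Leaving out 1 array at a time gave 0 to 1 passing at 12 hours against control, 0 to 2 at 5 days against 12 hours, 0 to 1 at 5 days against 3 days, and 0 in the other comparisons. It moved folds across 0 at 12 hours for Gsta1 on X78848cds_f_at (-0.10 to 0.14), at 1 day for Mt2A (-0.55 to 1.49), Mt3 (-0.61 to 1.91) and Sod2 (-0.024 to 0.60), at 3 days for Mt3 (-0.65 to 1.07), and at 5 days against 12 hours for Gsta1 on S72505_f_at (-0.0046 to 0.67). The folds counted last were those of the 6 probe sets against control and at 5 days against 12 hours, and the 4 Tf folds called. Under all alternatives run, 59 were reversed. Of the rest, 34 lost a call, 15 gained one and 814 kept direction and side of the threshold. The reversed folds include Mt2A at 3 days with the 5 clusters as a block, which also gained a call. The causes were not tested.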
